A study of Mus musculus with 4 samples.

Results

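Nppa and Nppb, the natriuretic peptide genes of the heart, are 2 of the 30268 genes in a table of single-cell UMI counts from mouse embryonic hearts. They were taken by name, and their levels were read in cells whose Tnnt2, Actc1, Myh6 and Myh7 transcripts together made up at least 1.5% of UMIs, called muscle-gene-rich cells here. These cells numbered 9545 of the 21495 cells kept, out of 24849 in the table. Controls carried Wt1 CreERT2/+ with Rosa26mTmG/+, and the conditional knockout (CKO) carried the same alleles together with Lats1/2 F/F. Per genotype and stage (E13.5, E14.5) there was 1 Drop-seq library, a method that tags the 3′ end of each transcript with a molecular identifier (UMI). All values below follow the order control E13.5, CKO E13.5, control E14.5 and CKO E14.5 unless the library is named. Lats1 and Lats2 are the Hippo pathway kinases that restrain the co-activators YAP and TAZ, and every library, controls included, carried the tamoxifen-activated CreERT2 and the membrane reporter.

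CreERT2 expressed from the Wt1 locus acts in Wt1-expressing cells, mainly the epicardium and cells derived from it, and heart muscle is not its main site. Wt1 was at 1.61, 2.23, 2.85 and 1.82 UMIs per 1000000 (CPM) in the muscle-gene-rich cells, against 27.0, 24.1, 26.1 and 50.4 CPM in cells under 1.5%. The recombination reporter Egfp was at 11.3, 24.97, 18.8 and 22.2 CPM in the muscle-gene-rich cells, against 23.4, 96.3, 23.3 and 125 CPM in the others. Genotype is thus compared below in cells with few Wt1 and Egfp transcripts.

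Nppa encodes atrial natriuretic peptide and Nppb encodes B-type natriuretic peptide, hormones that are cut from a precursor, bind guanylyl cyclase receptors and raise cyclic GMP in target cells. In the embryo both are made in atrial muscle and in the trabecular layer of the ventricles, the sponge of muscle ridges facing the chamber, and much less in the dividing compact wall outside it. In the adult ventricle both are silenced in large part and return under load, and they are a familiar readout of GATA, NK2, T-box and TEAD factors.

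The genes lie in the same orientation on chromosome 4 of mm10. Nppb spans chr4:147985788-147987205 and Nppa chr4:148000722-148002079, both on the + strand, with 3 exons each and 13516 bases between them. The non-coding gene Gm13054 lies on the opposite strand and overlaps Nppa by 989 bases. No source used here states that counting used strand, so reads of Nppa and of Gm13054 cannot be told apart with certainty. The 250 bases before each start site, from RefSeq's GRCm38.p6 table, are shown because the pair was co-detected in the same cells and because their windows differ in the letters known for these factor families. Capitals mark matches on either strand to the letters GATAA for GATA factors, to the letters GGTGTGA for T-box factors, to the letters AAGTG for NK2 factors, to the letters GGAATG for the M-CAT element of TEAD factors and to the letters TATAAA for the promoter box of that name. A match on the other strand appears as the reverse complement, and none of the matches overlapped another. The windows are chr4:148000472-148000721 for Nppa and chr4:147985650-147985899 for Nppb, both on the + strand. RefSeq starts Nppb later than the gene model whose span is given above, so the part of its window from base 147985788 on, with every marked Nppb match, lies in the first exon of that model.
Nppa: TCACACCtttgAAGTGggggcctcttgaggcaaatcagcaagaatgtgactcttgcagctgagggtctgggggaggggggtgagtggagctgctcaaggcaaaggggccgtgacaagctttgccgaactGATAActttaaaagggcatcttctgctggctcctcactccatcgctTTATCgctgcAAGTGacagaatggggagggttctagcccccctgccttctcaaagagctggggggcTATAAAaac
Nppb: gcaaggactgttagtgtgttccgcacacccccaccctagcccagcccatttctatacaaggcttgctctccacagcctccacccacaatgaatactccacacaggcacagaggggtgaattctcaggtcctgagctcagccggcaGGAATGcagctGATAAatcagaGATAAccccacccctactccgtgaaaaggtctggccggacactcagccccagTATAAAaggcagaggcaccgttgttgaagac

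Both windows held 2 GATA matches, at -121 and -75 from the start in Nppa and at -94 and -83 in Nppb. A GATA match was present in 22.6% of 32851 promoter windows of this length. The Nppa window alone had a T-box match, at -250, and NK2 matches, at -239 and -65. The Nppb window alone had an M-CAT match, at -105. T-box letters were found in 3.33% of windows, NK2 letters in 40.7%, M-CAT letters in 12.6% and TATA letters in 12.4%. The TATA match was at -9 in Nppa and at -31 in Nppb. A match describes letters only, and binding was not measured.

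The 4 libraries kept 4478, 5915, 5505 and 5597 cells, of which 1596, 2038, 2918 and 2993 were muscle-gene-rich. Between 132 and 275 cells a library lay just inside the limit (1.5 to 2.0% of UMIs) and 65 to 201 just outside it (1.0 to 1.5%). The muscle-gene-rich cells had a median of 1979, 2733.5, 1078.5 and 1151 UMIs and summed to 4977594, 7610577, 5268190 and 5504039 UMIs. Stage cannot be told apart from library preparation or from the gene minimum of the deposited cells, 500 genes for E13.5 and 300 for E14.5. All 10 cardiomyocyte markers were detected in every library, but Tnnt2, Actc1, Myh6 and Myh7 among them had selected the cells. Muscle-gene-rich cells that also carried at least 2 endothelial, 3 mesenchymal or 2 macrophage markers, or at least 1% haemoglobin UMIs, numbered 102, 313, 735 and 385.

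Nppa was the more abundant of the pair in every library. It stood at 2709 (95% Poisson interval 2664 to 2755), 1231 (1206 to 1256), 2049.9 (2011 to 2089) and 2158 (2119 to 2197) CPM in the muscle-gene-rich cells. Control E13.5 was highest and CKO E13.5 lowest, with both E14.5 libraries between them and close to each other. Nppb stood at 507 (487 to 527), 348 (335 to 361), 314 (299 to 329) and 229 (217 to 242) CPM. Nppb was highest in control E13.5 and lowest in CKO E14.5, and within each stage the CKO library was the lower. With 1 library per group there is no spread over samples, and intervals here and below cover counting error only. Per kilobase of exon, Nppa exceeded Nppb 4.83-fold, 3.19-fold, 5.90-fold and 8.50-fold, with exonic lengths of 865 and 781 bases; 3′ tags depend only weakly on length, and the ratios of UMIs were 5.35, 3.54, 6.54 and 9.42.

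To compare shares of cells across depths, each cell was thinned to 500 UMIs. An Nppa UMI was then present in 22.2%, 17.3%, 26.9% and 18.6% of muscle-gene-rich cells, and in 34.6%, 31.4%, 38.6% and 29.97% without thinning. An Nppb UMI was present in 15.98%, 9.52%, 9.60% and 7.62% after thinning, and in 35.5%, 29.9%, 20.2% and 15.6% without it. The CKO library was the lower of its stage in each of these shares for both genes.

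Free RNA in droplets gives UMIs in cells that do not express a gene, so the same shares were read outside the muscle. In cells under 1.5%, whose median depth was 1439, 1813, 869 and 908 UMIs, 2.71%, 2.94%, 9.08% and 7.80% had an Nppa UMI and 0.312%, 0.800%, 0.966% and 0.883% an Nppb UMI after thinning. Cells under 1.5% whose leading markers, at least 3, were erythroid gave Nppa shares of 23.7% and 18.1% at E14.5 (median depth 760 and 784 UMIs), close to the shares in muscle-gene-rich cells of the same libraries, so a single Nppa UMI at E14.5 does not mark a cell as expressing the gene. Nppa per 100 Tnnt2 UMIs was 23.2, 13.9, 13.3 and 13.8 in cells under 1.5% and 28.4, 11.01, 11.3 and 11.5 in muscle-gene-rich cells. The levels kept a wide gap, 70.2, 62.5, 180 and 149 CPM of Nppa in cells under 1.5%, so that muscle-gene-rich cells were 38.6-fold, 19.7-fold, 11.4-fold and 14.48-fold higher. Nppb was at 8.89, 11.8, 16.4 and 16.1 CPM there, with folds of 57.0, 29.4, 19.2 and 14.3.

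A stricter measure was the share of cells with at least 5 Nppa UMIs of 500. It was 8.83% (95% exact binomial interval 7.49 to 10.3), 3.83% (3.04 to 4.75), 5.41% (4.62 to 6.30) and 5.25% (4.47 to 6.11) of muscle-gene-rich cells. In cells under 1.5% it was between 0.0768% and 0.243%, and erythroid-marker cells met it in 1 of 29 (3.45%) and 2 of 162 (1.23%) at E13.5. At E14.5 it was met by 0 of 393 and 0 of 349 of these erythroid-marker cells, whose exact upper limits are 0.934% and 1.05%. Control E13.5 was the highest of the 4 by this measure as well, CKO E13.5 the lowest, and the E14.5 libraries had overlapping intervals. Few cells reached 5 Nppb UMIs, 12, 6, 2 and 2 of the muscle-gene-rich cells and 0 of those under 1.5% in each library.

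**Figure D1:**
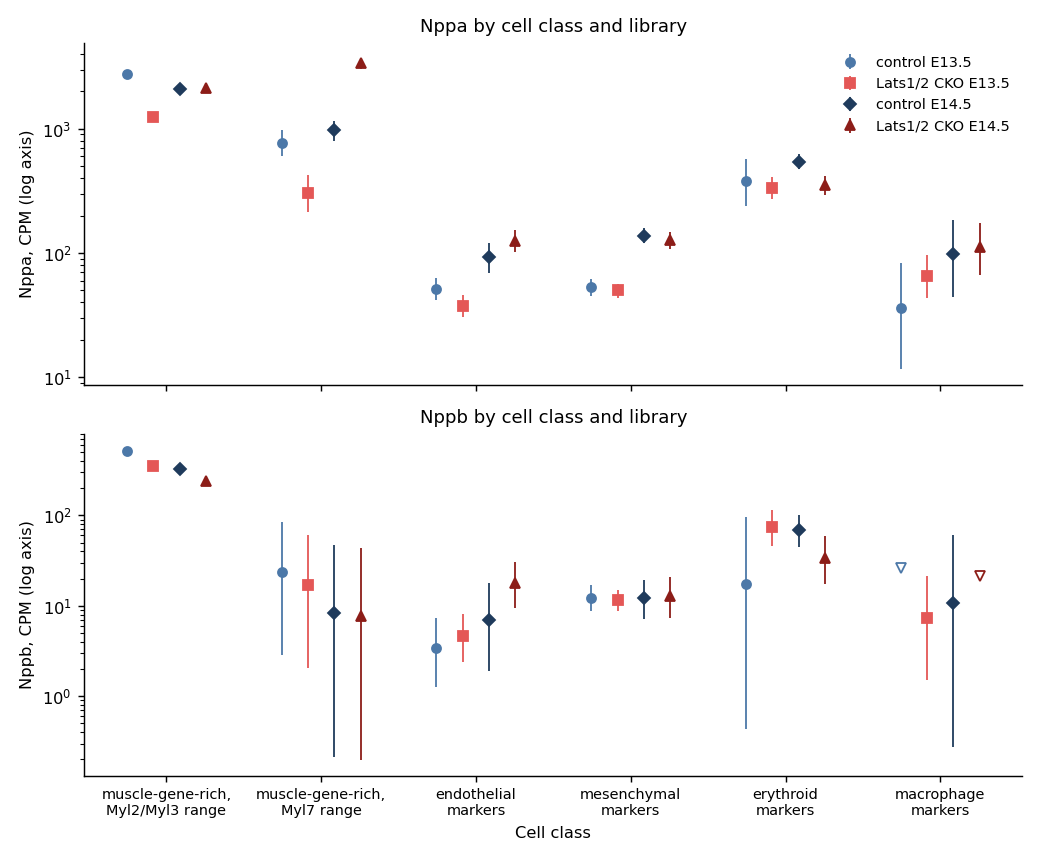
Nppa and Nppb in CPM (log axis) for each library. Classes are the ventricular and atrial ranges of muscle-gene-rich cells and, among cells under 1.5%, those with endothelial, mesenchymal, erythroid and macrophage markers. Points are summed counts, bars 95% Poisson intervals, and open downward triangles the upper limit where the count was 0. The ventricular range sits between 1255 and 2760 for Nppa and between 240 and 519 for Nppb, above each plotted class of cells under 1.5%.

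Muscle-gene-rich cells with Myl2 and Myl3, the ventricular myosin light chains, at 0.5% of UMIs or more form the ventricular range used here, with 1539, 1963, 2760 and 2763 cells. Those below it with at least 1.0% of Myl7, the atrial light chain, form the atrial range, with 36, 39, 38 and 68 cells. These are ranges of a score, and 26, 25, 134 and 172 cells had Myl2 and Myl3 between 0.4% and 0.6%. In the ventricular range Nppa was at 2760.0, 1255, 2099 and 2143 CPM and Nppb at 519, 355, 326 and 240 CPM. In the atrial range Nppa was at 775, 306, 971 and 3368 CPM, so that it was below the ventricular range in the first 3 libraries and above it in CKO E14.5. Nppb gave 2, 2, 1 and 1 UMIs in the atrial range, or 23.5, 17.0, 8.37 and 7.78 CPM, which is under the limit that a count of 0 allows there (3 UMIs). Sarcolipin (Sln), an atrial gene that the limits did not use, was at 1703, 919, 1038 and 1399.99 CPM in the atrial range. With 36 to 68 cells a library and 1 library a group, no difference between ranges or genotypes was tested.

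Nppa was concentrated in few cells. The 10% of muscle-gene-rich cells with the most Nppa UMIs held 89.1%, 90.04%, 84.4% and 92.2% of all Nppa UMIs. This ranking uses counts as they are, so cells of greater depth can rank higher. Nppa took at least 1% of all UMIs in 121, 69, 143 and 147 cells, which is 7.58%, 3.39%, 4.90% and 4.91% of the cells. The highest cell of each library gave 13.4%, 9.54%, 14.1% and 11.7% of its UMIs to Nppa. Outside those cells Nppa was at 671, 488, 895 and 620 CPM, with CKO the lower at each stage. Nppb was spread in the same uneven way at a lower ceiling, with 73.3%, 78.7%, 82.0% and 86.8% of its UMIs in the highest 10% of cells and 4, 0, 2 and 1 cells in which it took 1% of UMIs.

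**Figure D2:**
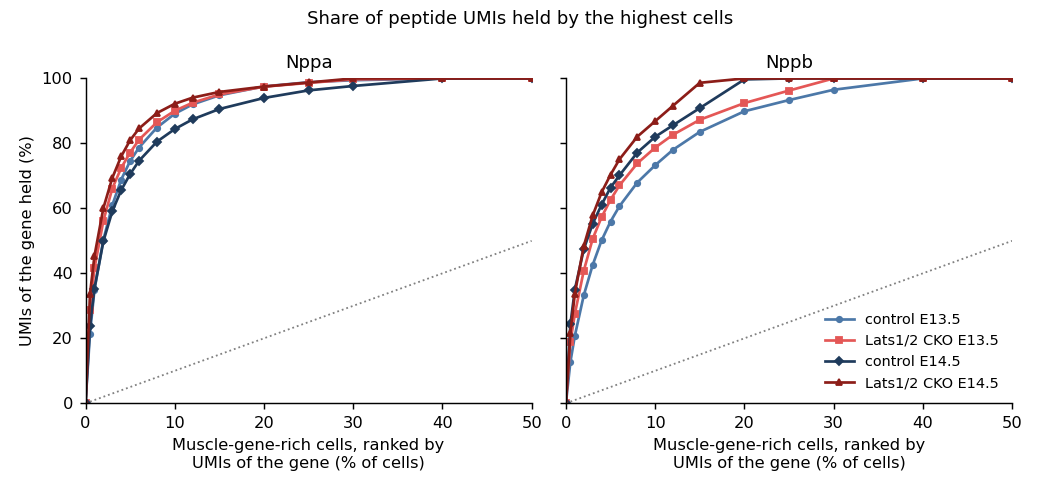
Muscle-gene-rich cells of each library ranked by their number of Nppa or of Nppb UMIs, against the cumulative share of that gene's UMIs. The dotted line is an even spread over cells. In each library the highest 10% of cells hold 84.4% to 92.2% of Nppa and 73.3% to 86.8% of Nppb.

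Nppa and Nppb were found in the same cells more often than the product of their shares. After thinning, 124, 83, 134 and 107 muscle-gene-rich cells had both, 2.19, 2.47, 1.78 and 2.52 times that product. Nppb was present in 34.9%, 23.5%, 17.0% and 19.2% of cells with an Nppa UMI, against 10.6%, 6.59%, 6.85% and 4.97% of cells without one. The ratio of these shares was 3.31, 3.57, 2.49 and 3.86, and the exact binomial intervals of the paired shares did not overlap in any of the 4 libraries. Read the other way, Nppa was present in 48.6%, 42.8%, 47.9% and 46.9% of cells with an Nppb UMI, against 17.2%, 14.6%, 24.7% and 16.3% of the rest. At this depth, cells with Nppb but no Nppa outnumbered cells with both in each library (131, 111, 146 and 121).

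The share of cells with Nppb was higher where Nppa was higher. In control E13.5 it was 10.6%, 26.1%, 33.0%, 41.8% and 48.4% in cells with 0, 1, 2 to 4, 5 to 19 and at least 20 Nppa UMIs of 500. In control E14.5 the same steps gave 6.85%, 9.31%, 19.05%, 31.2% and 40%, and in CKO E14.5 4.97%, 12.3%, 22.8%, 25.2% and 34.6%. CKO E13.5 gave 6.59%, 21.6%, 18.9%, 35.9% and 28.6%, which did not increase at every step. The last step of that library had 14 cells, and the last step of the others 20 to 31. Among cells under 1.5%, where shares are near background, 1, 6, 9 and 5 cells had both. That was 4.11, 6.58, 3.96 and 2.79 times the product of their shares there, from few cells. Intervals of the Nppb share with and without Nppa overlapped in control E13.5 (0.0325% to 6.94% against 0.123% to 0.561%). They also overlapped in CKO E14.5 (0.804% to 5.65% against 0.445% to 1.18%), but not in CKO E13.5 or control E14.5. Cells just outside the muscle limit are included here, and whether the excess extends beyond muscle was not tested.

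**Figure D3:**
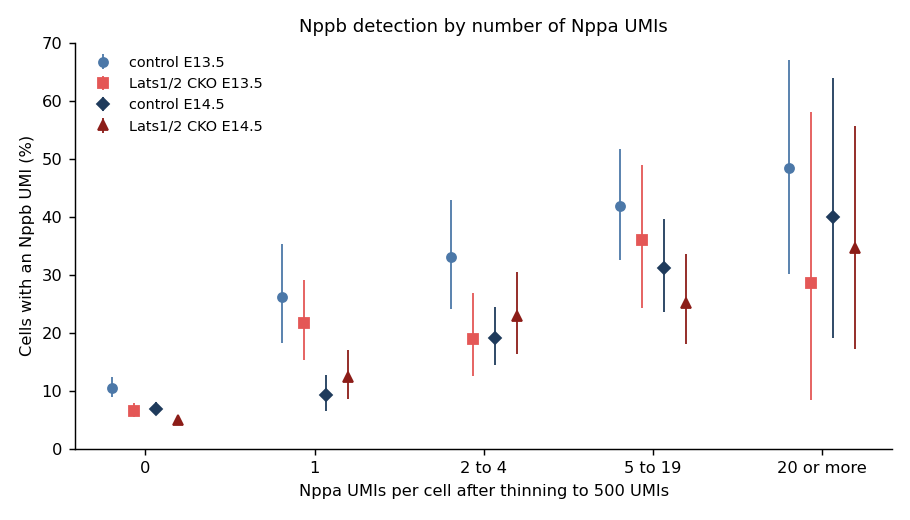
Percent of muscle-gene-rich cells with an Nppb UMI (linear axis from 0) against the number of Nppa UMIs among 500, for each library, with 95% exact binomial intervals. The share goes from 4.97% to 10.6% in cells without Nppa to 28.6% to 48.4% in cells with at least 20 Nppa UMIs.

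The genotype comparison asked whether loss of Lats1/2 in the Wt1 lineage went with other peptide levels in muscle. At E13.5 Nppa was 1231 CPM in CKO against 2709 in control, a log2 ratio of -1.14 (counting interval -1.18 to -1.10). At E14.5 the log2 ratio was 0.07 (0.04 to 0.11), from 2158 against 2049.9 CPM. The ratio of Nppa therefore differed between stages, while that of Nppb was of like size, -0.54 (-0.62 to -0.46) and then -0.45 (-0.56 to -0.35). In the additive fit of genotype and stage over the 4 libraries (edgeR's quasi-likelihood test with Benjamini-Hochberg adjustment), neither gene passed, as for 0% of the 14457 genes tested. Nppa had a genotype effect of -0.52 (log2, SE 0.37, adjusted p = 0.992) and Nppb one of -0.48 (SE 0.13, adjusted p = 0.992), the latter with an unadjusted p of 0.0211 where 549 genes (3.8%) were under 0.05. At a fit with 1 residual degree of freedom, a 2-fold change was recovered for 10% of changed genes among 14135 simulated with a dispersion of 0.08.

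The E14.5 ratio of Nppa rested on few cells. Without the 1% of cells with the most peptide UMIs, an alternative added after seeing the data, it was -0.17 (-0.22 to -0.12), and the E13.5 ratio was -1.27. In the ventricular range alone it was 0.03 (-0.01 to 0.07). Erythroid markers moved with genotype in the opposite sense at the stages: all 6 were detected in every library and summed to 1479, 3642, 5979 and 3802 CPM of the muscle-gene-rich cells. Their part in the ratios was not tested. Without cells carrying markers of another cell type, the genotype effects were of the same sign and again did not pass. The additive fit gives a single genotype effect for both stages, so it cannot show the part of these markers at either.

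Stage went with lower Nppb in both genotypes and with opposite Nppa ratios. From E13.5 to E14.5 the log2 ratio of Nppb was -0.69 in controls and -0.60 in CKO, and that of Nppa was -0.40 in controls and 0.81 in CKO. The stage effect of Nppb was -0.63 (SE 0.13, edgeR adjusted p = 0.423, unadjusted p = 0.00894) and that of Nppa 0.22 (SE 0.37, adjusted p = 0.839). Again 0% of genes passed; an unadjusted p under 0.05 was found for 1697 (11.7%). In cells under 1.5% Nppa was higher at E14.5, with log2 ratios of 1.36 and 1.25, so the muscle and the other cells did not move alike in controls.

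Muscle-gene-rich cells with an Nppa UMI after thinning were then compared with those without one, in 355, 353, 786 and 558 against 1241, 1685, 2132 and 2435 cells. The counts of each class were summed per library and tested with the library as a block (edgeR, n = 4 libraries with 2 sums each), and Nppa itself, which set the classes, is not a result. Of 13320 genes tested, 332 were higher (2.49%) and 172 lower (1.29%) in cells with Nppa, these counts including Nppa. The counts were 172 and 106 without control E13.5, 238 and 89 without CKO E13.5, 209 and 128 without CKO E14.5, and 202 and 273 without TMM factors. Median depths of the classes were close, 1848 against 2023, 2526 against 2790.0, 950.5 against 1133, and 1151 against 1151 UMIs.

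Nppb rose in cells with Nppa. It was at 1261, 999.6, 695 and 544 CPM in them and at 302, 223, 179 and 152 CPM in cells without, with no overlap between the classes. The difference was 2.08 (log2, SE 0.05, edgeR adjusted p = 3.37e-27). Mest, an imprinted gene of the mesoderm, was at 3542, 1926, 1073 and 1835 CPM with Nppa and at 772, 629.7, 463 and 606 without (log2 1.73, SE 0.07, adjusted p = 4.25e-20). Cited1, a transcriptional co-regulator found in trabecular muscle, rose by 1.56 on the log2 scale, Gtsf1 by 1.64, the taurine transporter Slc6a6 by 1.60 and calsequestrin (Casq2), which binds calcium in the sarcoplasmic reticulum, by 0.79. Fbln1, a matrix protein, rose by 0.82 and Rabgap1l by 0.80.

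Lyz2, lysozyme and a macrophage marker, rose by 2.37 (SE 0.18, adjusted p = 2.68e-12), with 152, 52.3, 77.9 and 136 CPM against 25.5, 12.1, 34.9 and 11.1. The other macrophage markers did not pass, so 1 of 8 was called, although all 8 had positive values. The whole list summed to 154, 115, 103 and 181 CPM with Nppa and to 33.7, 20.4, 56.5 and 39.8 CPM without. Its paralog Lyz1, named after its values were seen, was higher by 2.98, and reads can be split between these near-identical copies. Erythroid markers summed to 526, 6463, 8629 and 4737 CPM with Nppa and to 1737, 3101, 5045 and 3575 without, and 2 of 6 passed. Hba-x, an embryonic globin, had a log2 value of 0.91 and was higher in 2 of 4 libraries. It was 0.09 without cells carrying markers of another cell type and 0.08 without CKO E13.5, and neither value passed. The former alternative leaves out cells with at least 1% haemoglobin UMIs, so a smaller globin difference can follow from its rule.

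Slow skeletal troponin T (Tnnt1) was lower with Nppa. It was at 232, 472, 634 and 374 CPM against 831, 1441, 1459.6 and 1120.2 and fell by 1.48 on the log2 scale (SE 0.06, adjusted p = 6.63e-21). The protease inhibitor Spint2 fell by 0.85, the HLH inhibitor Id2 by 0.73, the immediate early gene Egr1 by 0.71, the lipolysis inhibitor G0s2 by 0.67 and the glucose transporter Slc2a1 by 0.64. Fhl1, Raph1, Hand2 and Gadd45g fell by 0.53 to 0.58. Each of these 10 was lower in 4 of 4 libraries.

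**Figure D4:**
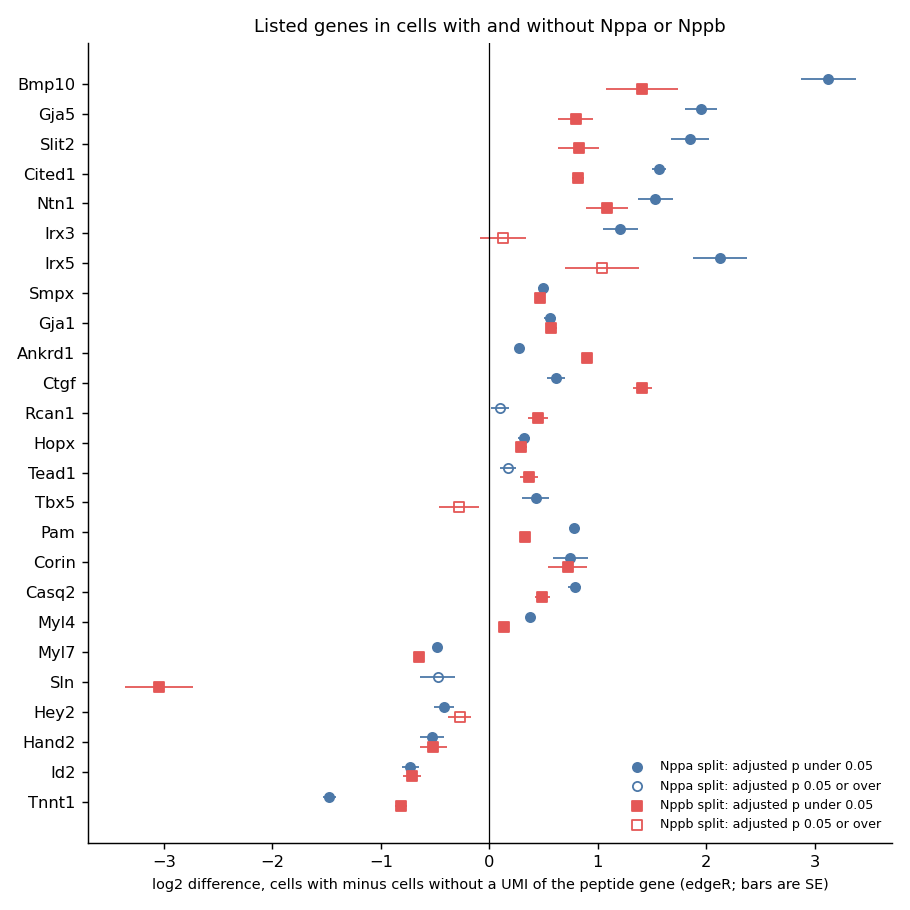
Log2 difference between muscle-gene-rich cells with and without an Nppa UMI (circles) and with and without an Nppb UMI (squares) for genes of the lists, with bars of 1 standard error from edgeR; filled symbols have an adjusted p under 0.05. Bmp10 lies at 3.13 and 1.41, Ankrd1 at 0.27 and 0.90, and Tnnt1 at -1.48 and -0.82.

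A list of trabecular and conduction genes was set beside these cells, with 16 of 18 measured. In cells with Nppa, 11 rose and 2 fell, with a median log2 difference of 0.89 against 0.01 over all genes tested. Of all genes tested, 2.49% rose and 1.29% fell. Bmp10, a growth factor of trabecular muscle, was at 26.3, 14.7, 11.7 and 43.6 CPM against 2.55, 1.57, 1.80 and 5.42 (log2 3.13, SE 0.25, adjusted p = 1.28e-11). Connexin 40 (Gja5), the gap junction protein of fast-conducting muscle, was at 95.9, 79.3, 40.8 and 80.8 CPM against 19.4, 18.5, 21.6 and 19.7 (log2 1.95). Slit2, Sema3a and Ntn1, guidance ligands, rose by 1.85, 1.54 and 1.53, the homeobox gene Irx3 by 1.21 and connexin 43 (Gja1) by 0.56. Etv1 (0.63) and Smpx (0.50) also rose, while Id2 and the potassium channel subunit Kcne1 (-0.41) fell. In the ventricular range alone, where 2.5% of 13159 genes were higher and 1.25% lower, Bmp10 and Gja5 had log2 differences of 3.11 and 1.96.

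Among 26 measured regulators of natriuretic peptide transcription, 4 rose and 6 fell in cells with Nppa, where 2.49% of all genes tested rose and 1.29% fell. Irx5 rose by 2.13, Irx3 by 1.21, the T-box activator Tbx5 by 0.43 and Hopx by 0.32. Hand2 fell by 0.53, Fos by 0.50, the compact-wall repressor Hey2 by 0.42, Jun by 0.39, Tbx20 by 0.34 and Gata6 by 0.31. Gata4 (-0.13) and Nkx2-5 (-0.03), known activators of the Nppa promoter, did not pass, with adjusted p of 0.614 and 0.908. Of 14 measured genes on the atrial list, 5 rose, among them Itga6 (1.17), the peptide amidating enzyme Pam (0.78), Tbx5, Angpt1 (0.39) and Myl4 (0.37), and 2 fell, among them Myl7 by 0.48. Without control E13.5, CKO E13.5 or CKO E14.5, 3 of the atrial genes rose, where 172 of 13113, 238 of 13062 and 209 of 13104 genes were higher.

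The natriuretic pathway itself was sparsely detected in muscle, and its counts stand beside 2.49% of all genes higher and 1.29% lower with Nppa. Corin, the protease that cuts the Nppa precursor, was at 40.4, 24.5, 18.2 and 65.9 CPM with Nppa and at 23.8, 19.4, 18.2 and 28.0 without, and rose by 0.75 (SE 0.16, adjusted p = 0.0033). This call was lost without CKO E14.5 (0.46, adjusted p = 0.259) and with DESeq2 (0.69, adjusted p = 0.0964), and in control E14.5 both levels were 18.2 CPM. Of 13 measured members it was the 1 that rose, and Mme (neprilysin, which degrades the peptides) was the 1 that fell, by 1.26 (adjusted p = 0.0223) from under 12 CPM, a call lost under 7 of the 11 alternatives that keep the library block. The receptor genes Npr1, Npr2 and Npr3 had log2 values of 0.12, 0.15 and -0.16 and did not pass, at 2.18 to 19.7 CPM over the libraries. Nppc, the third natriuretic peptide gene, was at 0.182 to 0.788 CPM, and Ostn, a ligand of the clearance receptor, had 0 UMIs in each library.

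The same comparison for Nppb used 255, 194, 280 and 228 cells with an Nppb UMI against 1341, 1844, 2638 and 2765 without. Of 13295 genes tested, 147 were higher (1.11%) and 107 lower (0.805%) in cells with Nppb, Nppb included. The counts were 67 and 53 without control E13.5, 84 and 67 without CKO E13.5, and 101 and 161 without TMM factors. Nppa rose, from 1745, 1032, 1586 and 1597 CPM in cells without Nppb to 7852, 2929, 5930.1 and 7805 CPM in cells with it (log2 2.02, SE 0.05, edgeR adjusted p = 7.93e-48). Every with-class value was above every without-class value.

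Ctgf, a matrix-associated protein, and Ankrd1, a titin-binding repressor, both known targets of YAP and TAZ, rose in the cells with Nppb. Ankrd1 was at 3093, 3149, 4218.5 and 4485 CPM with Nppb and at 1921, 1659, 2172 and 2466 without (log2 0.90, SE 0.04, adjusted p = 1.14e-31). Ctgf was at 179, 303, 173 and 157 CPM against 78.7, 119, 68.8 and 47.7 (log2 1.41, SE 0.09, adjusted p = 2.85e-22). Neither passed for genotype over all muscle-gene-rich cells, where the log2 effects were -0.02 for Ankrd1 and 0.06 for Ctgf. The TWEAK receptor Tnfrsf12a rose by 0.91, Mest by 1.08, Lyz2 by 1.29, Gtsf1 by 0.95, Cited1 by 0.82 and Fam134b by 0.72. Stmn4 rose by 0.80 but was higher in 3 of 4 libraries, and its call was lost without control E13.5 (adjusted p = 0.135), at a muscle limit of 3.0% (0.102) and with DESeq2 (0.34, adjusted p = 0.963).

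Of 13 genes listed for stretch and load, 6 rose and 0 fell with Nppb, with a median log2 difference of 0.25 against 0.01 over all genes. Shares over all genes tested were 1.11% higher and 0.805% lower with Nppb. Beside Ctgf and Ankrd1 the 6 that rose were Rcan1 (0.45), skeletal actin Acta1 (0.25), Cryab (0.22) and Csrp3 (0.22). In the Nppa comparison 5 of the 13 rose and 1 fell. The trabecular list had 7 of 16 higher and 1 lower with Nppb, with smaller values than with Nppa, such as 1.41 for Bmp10 and 0.79 for Gja5. Without control E13.5, 4 of the 16 were higher, and neither Bmp10 (adjusted p = 0.233) nor Gja5 (adjusted p = 0.114) passed; each lost its call in 3 of 11 alternatives, Bmp10 also without control E14.5 (1.23, adjusted p = 0.0595) and without CKO E14.5 (1.37, adjusted p = 0.102). Of 25 measured regulators, Tead1, a partner of YAP, rose by 0.37 and Hopx by 0.30, while Tbx3 fell by 1.59, Hand2 by 0.52 and Fos by 0.28. Without control E13.5, 1 regulator was higher and 0 lower, and without CKO E13.5 or control E14.5, 1 was lower. In the ventricular range alone, where 1.1% of 13047 genes were higher and 0.797% lower, Tbx3 did not pass (-1.12, adjusted p = 0.222). Corin rose by 0.72 (SE 0.18, adjusted p = 0.0103), the 1 of 13 pathway genes that passed, and lost its call in 4 of 11 alternatives, among them without control E13.5 (0.68, adjusted p = 0.173) and without CKO E14.5 (0.67, adjusted p = 0.102).

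Genes lower in cells with Nppb included the cell division genes Cenpe (-0.86), Cdc20 (-0.85), Kif23 (-0.77), Ckap2 (-0.71, adjusted p = 0.168 without control E13.5) and Cenpf (-0.67). Tnnt1 fell by 0.82, the growth factor binding protein Igfbp5 by 0.73, Id2 by 0.71 and Spint2 by 0.65. Atrial Sln was at 2.54, 6.26, 3.56 and 4.03 CPM with Nppb against 42.0, 20.7, 38.5 and 48.5 without, and fell by 3.05 (adjusted p = 5.75e-12), by 1.92 within the ventricular range. Hbb-bt had a value of -0.68 and was lower in 3 of 4 libraries, but it was 0.10 and did not pass without cells carrying markers of another cell type. Those cells include all with at least 1% haemoglobin UMIs, so this loss can follow from the rule. Hbb-bt and Hbb-bs are near-identical copies between which reads can be split.

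Cells that after thinning had Nppb but no Nppa were also set against those that had Nppa but no Nppb. This comparison was added after seeing the data. There were 131, 111, 146 and 121 cells with Nppb alone and 231, 270, 652 and 451 with Nppa alone, and Nppa and Nppb are no result here. The summed counts were not thinned, so cells of either class can carry UMIs of the other peptide. Over all muscle-gene-rich cells, Nppb shares were 35.5%, 29.9%, 20.2% and 15.6% without thinning, against 15.98%, 9.52%, 9.60% and 7.62% after it. The word alone thus holds for the thinned counts only. Of 8479 genes tested, 35 were higher (0.413%) and 53 lower (0.625%) in the cells with Nppb alone. The counts were 10 and 23 without control E13.5 and 17 and 48 without CKO E14.5. Ctgf rose by 1.005 (SE 0.15, edgeR adjusted p = 9.66e-07) and Ankrd1 by 0.79 (SE 0.06, adjusted p = 2.01e-18), each in 4 of 4 libraries. Ankrd1 was at 2765, 2984, 3602 and 4329 CPM with Nppb alone and at 1534, 1525, 2112 and 2794 with Nppa alone. Tnnt1 rose by 0.86, Gadd45g by 0.83, the hypoxia gene Bnip3 by 0.68, the mitochondrial co-activator Ppargc1a by 0.67 and the actin regulator Lmod2 by 0.64. Of 7 alternatives, Ppargc1a lost its call in 3, Gadd45g in 2, and Tnnt1, Bnip3 and Lmod2 in 1 each. Without control E13.5 the adjusted p was 0.158 for Gadd45g and 0.0592 for Bnip3, and Ppargc1a did not pass. Without CKO E14.5 it was 0.0699 for Ppargc1a.

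In the other direction stood genes of the trabecular and atrial lists, higher with Nppa alone. With Nppb alone Bmp10 fell by 3.75, from 21.6, 19.01, 7.41 and 37.4 CPM to 2.40, 2.13, 0 and 0. The fitted value is no bound because 2 libraries are at 0. In sums of 416344, 470182, 268767 and 275841 UMIs, all 4 values lie under the limit that a count of 0 allows (3 UMIs). Sln fell by 3.58, Slit2 by 1.75, Itga6 by 1.55, Irx3 by 1.53, Gja5 by 1.31, Tbx5 by 1.17 and Cited1 by 1.15. Lyz2 (-1.87), Slc6a6 (-1.35), Angpt1 (-1.35) and Mest (-0.86) also fell. Over the lists, 5 of 13 trabecular genes fell and 1 rose, and 6 of 10 atrial genes fell and 0 rose. Shares over all genes tested were 0.625% lower and 0.413% higher. Without control E13.5, 3 trabecular and 5 atrial genes fell, and in the ventricular range alone 4 of 9 atrial genes fell. With DESeq2, where 11 of 21828 genes were lower, 1 of 18 trabecular and 2 of 15 atrial genes fell. Of 7 alternatives, Slc6a6 lost its call in 2, one of them without control E13.5 (adjusted p = 0.0511), and Angpt1 and Gja5 in 1 each, with DESeq2. The globin genes had values of -1.52 to -1.79, and none passed without cells carrying markers of another cell type, where 32 genes were higher and 45 lower. That alternative leaves out cells with at least 1% haemoglobin UMIs, so the loss can follow from its rule and does not show where the globin UMIs came from. Erythroid markers summed to 298, 917, 4681 and 1610 CPM with Nppb alone and to 618, 6917, 9775 and 4298 with Nppa alone.

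Across single muscle-gene-rich cells, 4658 genes found in at least 5% of cells of every library were ranked by their mean Pearson r with each peptide over the 4 libraries, as a description. Cells of a library share its depth and preparation. The r between Nppa and Nppb was 0.38, 0.35, 0.28 and 0.32. The genes most like Nppa were Mest (0.37), Nppb (0.33), Cited1 (0.30), Gtsf1 (0.18), Pam (0.18), Casq2 (0.16), Sparc (0.16), Slc6a6 (0.15), Myl4 (0.15), Gja1 (0.14), Smpx (0.12) and Cst3 (0.12). Those most unlike it were Tnnt1 (-0.18), H19_Mir675 (-0.14), Mif (-0.13), H19 (-0.10), Aldoa (-0.09), Bnip3 (-0.09), Slc2a1 (-0.09) and Id2 (-0.09). In all, 16 genes had a mean r over 0.1 with Nppa and 20 with Nppb.

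The genes most like Nppb were Nppa (0.33), Ankrd1 (0.26), Ctgf (0.20), Tnfrsf12a (0.20), Mest (0.19), Gja1 (0.17), Smpx (0.16), Fam134b (0.14), Bex1 (0.14), Casq2 (0.13), Lmod3 (0.13) and Myl12a (0.12). Ankrd1, Ctgf and Tnfrsf12a had a mean r of 0.07, 0.06 and 0.06 with Nppa. Those most unlike Nppb were Tnnt1 (-0.09), Id2 (-0.09), H19_Mir675 (-0.07), Csrp2 (-0.06), Mfap2 (-0.06), Tmsb4x (-0.05), AV026068 (-0.05) and Htra1 (-0.05), values too near 0 to rank. With cells thinned to 500 UMIs, 10 of the 12 genes most like Nppa and 8 of the 12 most like Nppb were found again. The values were lower there. With Nppa they went from 0.29 (Mest) to 0.06 (Smpx). With Nppb they were 0.24 for Nppa, 0.16 for Ankrd1, 0.12 for Mest, 0.09 for Tnfrsf12a and 0.08 for Ctgf. The remaining genes most like Nppb had 0.07 (Gja1) to 0.03 (Lmod3), which is also too near 0 to rank.

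**Figure D5:**
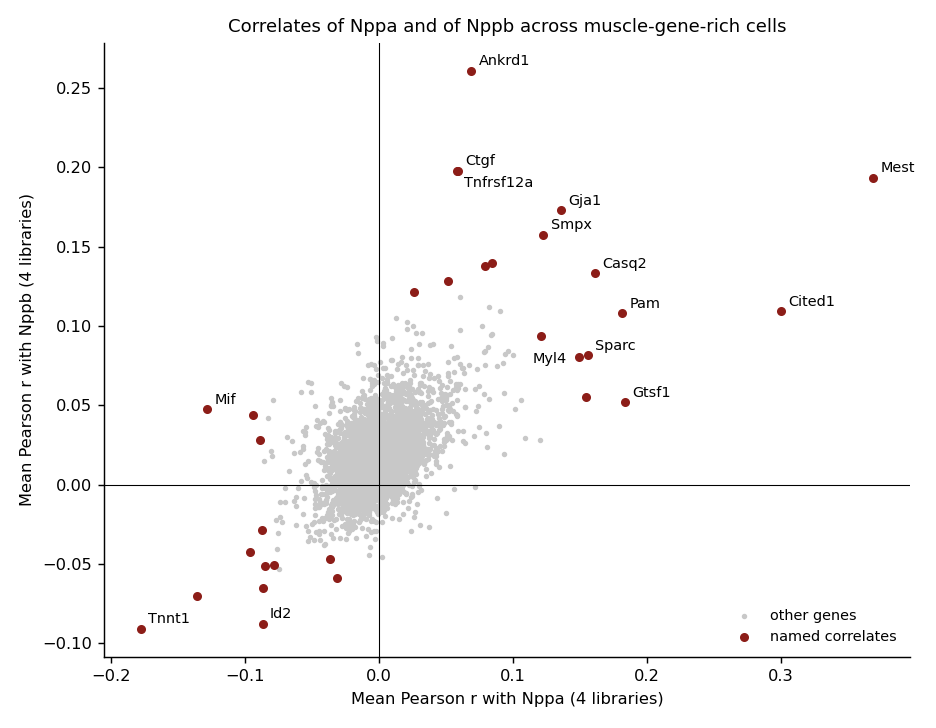
Mean Pearson r over 4 libraries with Nppa (horizontal axis) and with Nppb (vertical axis) across muscle-gene-rich cells, 1 point per gene, with some of the named genes labelled. Mest and Cited1 lie far along the Nppa axis (0.37 and 0.30), and Ankrd1 and Ctgf far along the Nppb axis (0.26 and 0.20).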

How the data were processed

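The authors deposited 1 table of whole UMI counts for all 4 libraries, with 30268 genes and 24849 cells, and 0 columns were left unused. Per the submitters' processing notes, reads were handled with STAR, Picard and mm10; versions, gene models, strand use, embryos per library and tamoxifen timing are not given in the sources used here. The labels do not say which or how many embryos gave each library, and with 1 library per group no p measures spread between animals.

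Cells under 500 UMIs, under 300 genes or over 20.0% mitochondrial UMIs were dropped. Summed counts per library and class were tested with edgeR 4.0.16 (limma 3.58.1, R 4.3.3) by its quasi-likelihood test, with TMM factors, filterByExpr and Benjamini-Hochberg adjustment over all genes tested. Genotype and stage were fitted additively, with 1 residual degree of freedom; both sums of a split come from the same library, so the library was the block, with 3. DESeq2 1.42.0 was an alternative. Levels carry exact Poisson and shares exact binomial 95% intervals, and a count of 0 allows up to 3 counts, all for counting error only. No doublet caller was run, and an alternative leaves out cells with markers of another cell type. Muscle-gene-rich cells of different libraries shared 0 or 1 barcodes per pair.

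In simulated data the split test recovered 62% of 1.5-fold and 86% of 2-fold changes over 12361 genes (dispersion 0.003). Named genes were the 12 highest and 8 lowest mean r with 1 sign in all libraries, the 10 highest and 10 lowest called values of at least 50 CPM, and members of the lists. The members and lists were chosen with earlier results of these data known. Python 3.11.15 was used. Sequences are RefSeq's (GRCm38.p6). Single members of the lists that are not reported here remain in the counts.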

Additional observations from a re-analysis of the deposited data

Results flagged for a closer look

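The CKO to control ratio of Nppa in muscle-gene-rich cells pointed different ways at the stages, -1.14 (log2) at E13.5 and 0.074 at E14.5. Likewise the E14.5 to E13.5 ratio of Nppa was -0.40 in controls and 0.81 in CKO. These are marked because the sign differs between groups of 1 library each; the difference was not tested, and the additive fit carries it as its residual.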

How the results depend on the processing

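Alternatives marked as added (at least 2 UMIs, the most peptide-rich cells left out, and all for Nppb alone against Nppa alone) were chosen after seeing the data. The genotype and stage effects of both peptides kept their sign and did not pass under all 9 of their alternatives, with ranges of -0.71 to -0.25 (Nppa) and -0.57 to -0.42 (Nppb) for genotype and of 0.15 to 0.27 and -0.89 to -0.60 for stage. The count of genes higher and lower by genotype, 0 and 0, was 8 and 9 with DESeq2 and 18 and 38 without a filter on low counts. For stage, genes higher numbered 18 at a muscle limit of 3.0%, 12 without cells of other markers, 9 in the ventricular range, 2 without TMM factors, 11 without the 1% most peptide-rich cells, 114 with DESeq2 and 145 without a filter; lower genes numbered 12 with DESeq2 and 51 without a filter.

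For the Nppa split (332 higher, 172 lower), counts were 181 and 92 at 3.0%, 132 and 54 with DESeq2, 202 and 273 without TMM factors and 219 and 301 without a filter. For the Nppb split (147 and 107), higher genes were 224 thinned to 1000 UMIs and 46 at 2 UMIs or more, and counts were 67 and 50 at 3.0%, 93 and 33 with DESeq2, 101 and 161 without TMM factors and 78 and 186 without a filter. With DESeq2 the median log2 difference over all 26757 genes was 0.11 and 0.16, against 0.01. Leaving out each library gave 172 to 295 and 89 to 145 for Nppa and 67 to 135 and 53 to 97 for Nppb. For Nppb alone against Nppa alone (35 and 53) it gave 10 to 43 and 23 to 68, and DESeq2 gave 6 and 11. The lowest counts of higher genes came without control E13.5; without CKO E13.5, Nppb-split higher genes were 84 and Nppa-split lower genes 89, and without CKO E14.5 Nppa-split higher genes were 209 and genes higher with Nppb alone 17. The cause was not tested.

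Without the replicate block by library, 4 and 0 genes passed in the Nppa split, with Nppb at 2.09 (adjusted p = 0.0537), and 1 and 0 in the Nppb split, with Nppa at 2.09 (adjusted p = 0.0999); under all 12 other alternatives each passed. No paired analysis was possible because, for genotype and stage, the labels give 1 library per group.

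Hbb-bt in the Nppb split was 0.172 thinned to 1000 UMIs and 0.096 without cells of other markers. In the comparison of Nppb alone with Nppa alone, without those cells Hbb-bt was 0.056, Hba-x 0.072, Hba-a2 0.026 and Corin 0.049; leaving out each library, Corin ranged from -0.33 to 0.11 (0.11 without CKO E14.5). Of 731 values of named genes with the block kept, 658 kept side and sign. The median share of cells with Nppb was 17.2% thinned to 1000 UMIs; without thinning the medians were 33.0% (Nppa) and 25.03% (Nppb) and the ratio of Nppb shares 2.41. The mean r of the pair was 0.24 in thinned cells. Depth limits single-UMI classes at E14.5 and the atrial range.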

Other observations

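Other gene groups also differed between muscle-gene-rich cells with and without the peptides. Over all genes tested, 2.49% were higher and 1.29% lower with Nppa, and 1.11% and 0.805% with Nppb. Of 30 genes of S, G2 and M phase, 0 rose and 10 fell with Nppa (6 without CKO E13.5). Those that fell went from Nusap1 (-0.38) to Cenpa (-0.29). At a muscle limit of 3.0%, 4 fell with Nppa. The median log2 difference of the 30 genes was then 0.006, against -0.17 in the main comparison. A general lowering of these genes with Nppa was thus not seen at that limit. With Nppb 0 rose and 12 fell, from Cenpe (-0.86) to Top2a (-0.33). At 3.0%, 10 fell with Nppb, and the median was -0.27 both there and in the main comparison. Between cells with Nppb alone and with Nppa alone none of the 30 passed edgeR's test, where 5 had an unadjusted p under 0.05. Of 30 measured sarcomere genes, 12 rose and 3 fell with Nppa. This list includes Tnnt2, Actc1, Myh6 and Myh7, whose UMIs selected the cells, so its counts are not independent of that limit. Myl1 rose by 1.26, Tpm2 by 0.42 and Myl4 by 0.37, while Tnnt1, Myl7 and Acta2 fell. With Nppb 13 rose and 2 fell, led by Tcap (0.47) and Tpm2 (0.34); the number higher was 4 without CKO E13.5, 5 without control E13.5, 6 without control E14.5, 4 without TMM factors, 4 with no filter on low counts, 4 at a muscle limit of 3.0% and 1 with at least 2 Nppb UMIs.

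The mitochondrial creatine kinase Ckmt2 rose by 0.996 with Nppa and by 0.94 with Nppb. Among 14 measured genes of energy metabolism, Cox8b (0.33), Acadvl (0.29) and Ldhb (0.23) also rose with Nppa, and Slc2a1 (-0.64) and myoglobin, Mb (-0.50), fell. The number of this list that rose was 4, against 1 with DESeq2, 1 at a muscle limit of 3.0% and 2 without TMM factors. Of 14 measured genes of secretory granules and calcium handling, Casq2 (0.79), Pam (0.78), the histidine-rich calcium-binding protein Hrc (0.45), phospholamban, Pln (0.24) and S100a1 (0.23) rose with Nppa and 0 fell. Mesenchymal markers passed as lower for 4 of 8 genes with Nppa and summed to 308, 318, 901 and 498 CPM with it and to 319, 587, 1068 and 515 CPM without.

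Gm13054, which overlaps Nppa on the opposite strand and was named after its values were seen, was at 121, 41.7, 66.3 and 91.0 CPM in cells with an Nppa UMI and at 3.07, 1.10, 2.57 and 3.16 CPM in cells without. Whether these UMIs come from Nppa or from Gm13054 cannot be told apart.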
